A study of Mus musculus with 24 samples.

Results

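Gene expression was compared between regulatory T cells (Treg) of mice with a conditional knockout of Trim28 (CKO) and Treg of wild-type (WT) mice, across all measured genes. The comparison takes the arrays titled as CKO Treg and as WT Treg, which are 8 of the 24 arrays of the study, 4 per genotype. The cells came from female C57BL/6 mice of 6 or 7 weeks and were sorted by the design text as CD4+CD62+CD25+ cells. The deletion is described as T cell-specific. The promoter that drove the recombinase is not given in the sources used here, and host cells outside the T lineage would keep Trim28. The other 16 arrays held CKO and WT naive cells (CD4+CD62+CD25-). Of each genotype 4 were left unstimulated and 4 were stimulated for 13 h with plate-coated anti-CD3 and anti-CD28. These 16 arrays also enter the filter on probes and the estimate of the spread behind each Treg p-value. Their levels are given below where Treg are set against naive cells.

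The sample tags conflict with the design text on how the Treg were treated. All 4 CKO Treg samples carry the tag TCR-stimulated and all 4 WT Treg samples the tag unstimulated, whereas the design text speaks of stimulation for naive cells alone. If the tags are right, genotype and stimulation cannot be told apart in this comparison. Levels of activation genes that bear on the conflict are given below. The labels do not say that the arrays of a group came from separate animals. A p-value here rests on the spread among arrays within groups, pooled over all 24 arrays. That spread may be technical, at least among arrays from mice of the same age. Samples 1 to 4 came from mice of 7, 6, 6 and 7 weeks in CKO Treg. In WT Treg the ages were 6, 6, 6 and 7 weeks, so the samples numbered 1 differed in age between genotypes.

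Trim28 (also KAP1 or TIF1-beta) is a corepressor without DNA binding of its own. KRAB zinc finger proteins, a large family encoded in gene clusters, bind DNA and bring Trim28 there, and Trim28 in turn recruits the histone H3 lysine 9 methyltransferase Setdb1, HP1 proteins and histone deacetylases. The complex is known for silencing endogenous retroviruses, imprinted regions and the zinc finger clusters themselves. Treg are the CD4 T cells that hold immune responses in check, are defined by the transcription factor Foxp3, carry a high level of the interleukin-2 receptor chain Il2ra (CD25), and include a subset of effector Treg that enter tissues.

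Signal was expressed as log2 of the array's processed signal minus the array's 75th percentile, here called the level, and each gene was read from its brightest kept probe. A gene was called where limma's adjusted p (Benjamini-Hochberg, all 16489 genes) was under 0.05. A difference is always CKO minus WT on the log2 scale, with its standard error (SE). The CKO Treg arrays were dim: the 75th percentile of the raw signal was 31.3 to 116 in CKO Treg, against 53.9 to 200 in WT Treg, and 43.0% to 56.9% of probes were well above background in CKO Treg, against 48.3% to 59.0% in WT Treg. Correlations across genes were 0.961 to 0.982 between CKO arrays and 0.969 to 0.984 between WT arrays, and 0.951 to 0.977 between arrays of different genotype. CKO and WT samples with the same number shared a slide, with CKO at positions 3 or 4 and WT at positions 1 or 2, so position on the slide and genotype cannot be told apart.

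The cells carried the Treg label in both genotypes. Foxp3 stood at 3.37, 3.20, 3.21 and 3.58 in CKO Treg, against 3.52, 3.09, 3.23 and 3.19 in WT Treg. The groups overlapped and differed by 0.08 ± 0.20 (limma adjusted p = 0.926). Against unstimulated naive cells of the same genotype, Foxp3 was 35.8-fold higher in CKO Treg (5.16 ± 0.20) and 65.6-fold higher in WT Treg (6.04 ± 0.20). Il2ra, which the sort selected, was 2.81, 2.76, 2.60 and 3.00 in CKO Treg, against 3.37, 2.60, 2.84 and 2.86 in WT Treg, a difference of -0.12 ± 0.16 (adjusted p = 0.834).

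Activation genes bear on the conflict over treatment. The median level over the 40 measured genes of a T cell receptor (TCR) activation list was 2.46, 2.18, 2.41 and 2.35 on the CKO Treg arrays, against 2.56, 2.44, 2.18 and 2.51 on the WT Treg arrays. It was 2.77 to 3.46 on arrays of stimulated CKO naive cells and 2.61 to 3.18 on those of stimulated WT naive cells. On the unstimulated naive arrays it was 1.96 to 2.19 in CKO and 0.98 to 1.94 in WT cells. Both Treg groups lay below both stimulated groups and above the unstimulated WT naive cells, met the upper end of the unstimulated CKO naive cells, and overlapped each other. Of the 40 genes, 21 were over 1 log2 unit higher after stimulation of WT naive cells, by a median of 2.18, and in CKO against WT Treg these 21 had a median difference of -0.04, with 0 called higher and 1 lower. Over all 40 genes 0 were called higher and 2 lower (5%, where 1.84% of all genes were lower in CKO Treg), with a median of -0.06. The 2 were Ifng, described below, and Myc, a driver of growth (-0.61 ± 0.15, adjusted p = 0.019), which lost its call with the replicate block (0.132) and without CKO 3 (0.0791), WT 1 (0.054) or WT 3 (0.0519). Other Myc probes gave -0.67 (adjusted p = 0.014) and -0.35 (0.559). Il2 was not well above background on any Treg array, and whether stimulated Treg would express it was not tested.

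Markers of other cell types were present in both groups. The summed level of 17 B cell markers, taken relative to the 75th percentile, was 87.5 to 140 on CKO Treg arrays and 67.3 to 99.2 on WT Treg arrays. It was higher in CKO in each same-numbered pair. Of the 17 markers 14 had a difference above 0, with none called, or 1 with slide as a block. For 19 myeloid and dendritic markers the sum was 20.1 to 151 in CKO Treg and 17.5 to 107 in WT Treg, again with none called. Of 4 stromal and epithelial markers 1 was called, the adhesion molecule Epcam (1.83 ± 0.26, adjusted p = 6.95e-05; 0.056 with the replicate block). Of 11 markers of CD8, natural killer (NK) and unconventional T cells, which summed to 6.53 to 11.9 in CKO Treg and 7.76 to 13.0 in WT Treg, Klrb1c was called higher and Eomes lower. The Klrb1c call (1.99 ± 0.46, adjusted p = 0.0116) was lost without CKO 1 (0.0504) or WT 3 (0.0538). The sums were 0.575 to 18.8 and 0.586 to 8.61 for 4 erythroid and platelet markers in CKO and WT Treg, and 4.63 to 6.39 and 5.47 to 7.59 for the stromal and epithelial markers. In such bulk samples fewer cells of a type and less RNA per cell cannot be told apart.

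Between CKO and WT Treg 710 genes were called. Of these 407 were higher, which is 2.47% of the genes tested, and 303 were lower, which is 1.84%. The rises were larger than the falls: 61 genes were higher by over 3 log2 units, and 3 were lower by as much (Plagl1, Eomes and Galnt14). Among genes detected on at least 3 arrays of both groups the median called difference was 1.04 for the 307 rises and -0.76 for the 243 falls. Another 42 of the rises were seen in CKO alone and 22 of the falls in WT alone, that is, on at least 3 arrays of the one group and on none of the other, and for these only a bound on the fold can be given. The groups did not overlap for 372 of the 407 rises and 274 of the 303 falls. Over all genes tested the median difference was 0.005, and without the filter on dim probes it was 0.224 over 27670 genes. The dimmest signal still well above background stood at a level of -4.64 to -2.69 on the CKO Treg arrays. On the WT Treg arrays it stood at -5.07 to -3.30. Its part in the sizes of rises and falls was not tested.

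**Figure D1:**
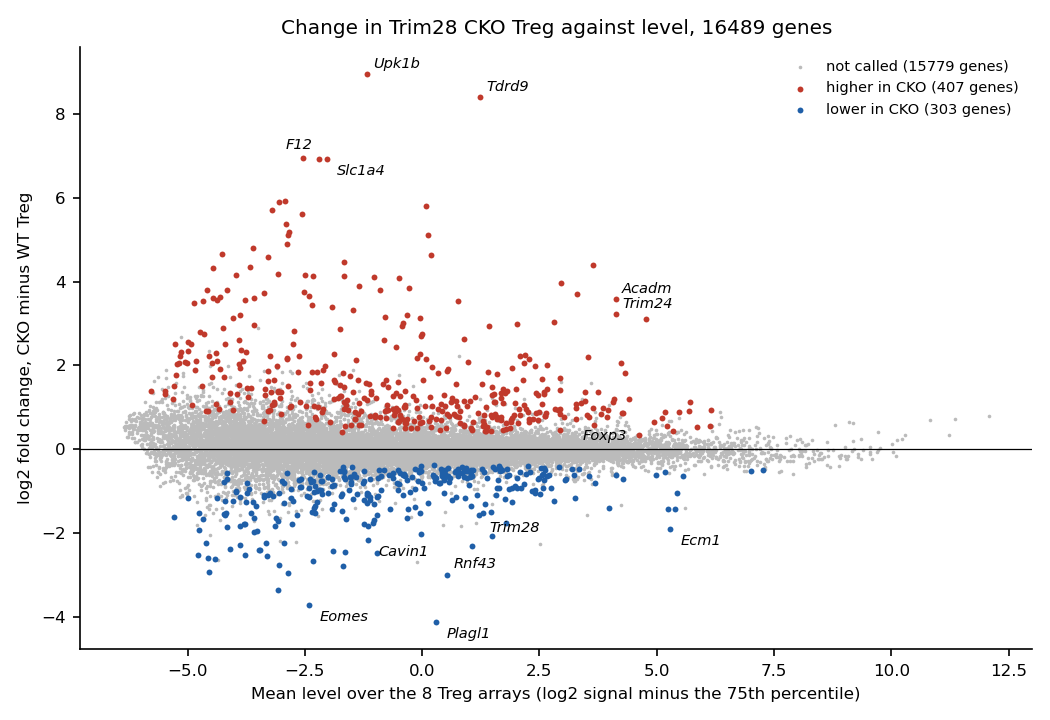
Difference between CKO and WT Treg (y axis, log2 fold change) against the mean level over the 8 Treg arrays (x axis, log2 signal minus the 75th percentile) for 16489 genes. Red points are the 407 genes called higher and blue points the 303 called lower in CKO Treg; rises above 3 log2 units spread over dim and bright genes, and Foxp3 lies at the zero line.

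The count depends on how the spread is estimated. With the 8 Treg arrays alone and the replicate number as a block, 248 genes were called, 180 higher and 68 lower, so that 72.6% of the calls were rises against 57.3% in the fit on all 24 arrays. Without the block the 8 arrays alone gave 365 calls, 70.4% of them higher, and with age as a covariate 284, 72.2% higher. With normexp background correction, which adds an offset of 50 to signals as dim as these, 81 genes were called, 87.7% of them higher. The balance turned with other scalings: quantile normalization called 488 genes higher and 539 lower (47.5% higher), and the authors' normalized values 487 higher and 531 lower (47.8% higher).

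The gene deleted was lower in every CKO array. Trim28 stood at 0.26, 0.20, 0.60 and 0.67 in CKO Treg, against 2.24, 1.81, 1.90 and 2.05 in WT Treg, with no overlap. It was 2.96-fold lower (-1.57 ± 0.17, adjusted p = 1.95e-06). A single probe reads Trim28 on this array, and its place relative to the deletion was not determined, so it checks the labels only as far as that allows.

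Genes of the silencing machinery that works with Trim28 were for the most part not called, but 4 of 35 rose (11.4%, beside 2.47% of all genes) and Trim28 itself was the 1 that fell. The list median was 0.06. HP1 proteins (Cbx1, Cbx3 and Cbx5), the DNA methyltransferases Dnmt1, Dnmt3a and Dnmt3b, and the HUSH subunits Mphosph8, Tasor and Pphln1 had differences between -0.35 and 0.24, none of them called. The 4 rises were Trim24, Setdb1, Morc3 and Mbd1.

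Trim24 is a chromatin reader of the same family as Trim28. Its level was 5.73, 5.61, 5.82 and 5.86 in CKO Treg, against 2.76, 2.45, 2.46 and 2.42 in WT Treg. The groups lay far apart, 9.39-fold (3.23 ± 0.14, adjusted p = 1.5e-12), and the other probes for Trim24 gave 3.46 and 3.11. The third family member measured here, Trim33, was 3.24, 2.98, 2.89 and 3.04 in CKO Treg, against 3.09, 2.68, 2.66 and 2.61 in WT Treg, and its difference of 0.28 ± 0.13 was not called (adjusted p = 0.312).

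Setdb1, the methyltransferase that Trim28 recruits, stood at 0.47, 0.61, 1.07 and 0.55 in CKO Treg, against -1.55, -1.84, -1.82 and -1.87 in WT Treg. All 4 CKO arrays were above all 4 WT arrays, by 5.44-fold (2.44 ± 0.21, adjusted p = 6.11e-08). A second probe for Setdb1, above background on 4 of the Treg arrays, gave 4.69 ± 0.54. In unstimulated naive cells the same comparison gave -0.17 ± 0.21 (adjusted p = 0.592), and the difference between the Treg and the naive difference was itself called (2.61 ± 0.29, adjusted p = 5.4e-05). In stimulated naive cells the mean was 0.12 in CKO and -0.61 in WT cells. The start of the gene is shown because Setdb1 is the partner of Trim28 whose difference set Treg apart from unstimulated naive cells in that test. The sequence is from RefSeq (GRCm38.p6, chr3:95357153-95357452, minus strand, 250 bases before to 50 after the annotated start), with CG dinucleotides, the sites of DNA methylation, in capitals. It holds 15 of them, beside a median of 7 over the 27025 promoters of the same length in that table, 94.2% of which hold at least 1.
Setdb1: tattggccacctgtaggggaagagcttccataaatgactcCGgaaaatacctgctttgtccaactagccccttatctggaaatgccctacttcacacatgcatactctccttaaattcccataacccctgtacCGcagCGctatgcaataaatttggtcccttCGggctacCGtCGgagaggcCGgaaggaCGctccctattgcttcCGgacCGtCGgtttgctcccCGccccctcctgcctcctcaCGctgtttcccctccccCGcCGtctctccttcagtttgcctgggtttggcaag

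Morc3 and Mbd1 were also higher on every CKO array. Morc3, a nuclear ATPase with a histone-reading zinc finger, was 3.32, 3.15, 3.07 and 3.27 in CKO Treg, against 1.00, 1.20, 1.32 and 1.07 in WT Treg. Its rise was 4.16-fold (2.06 ± 0.13, adjusted p = 5.43e-10). Mbd1, which binds methylated CpG and is known to interact with a Setdb1 cofactor, was 4.62, 4.65, 4.62 and 4.85 in CKO Treg, against 3.19, 3.37, 3.83 and 3.58 in WT Treg (1.19 ± 0.18, adjusted p = 0.000187). The groups did not overlap for either gene.

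**Figure D2:**
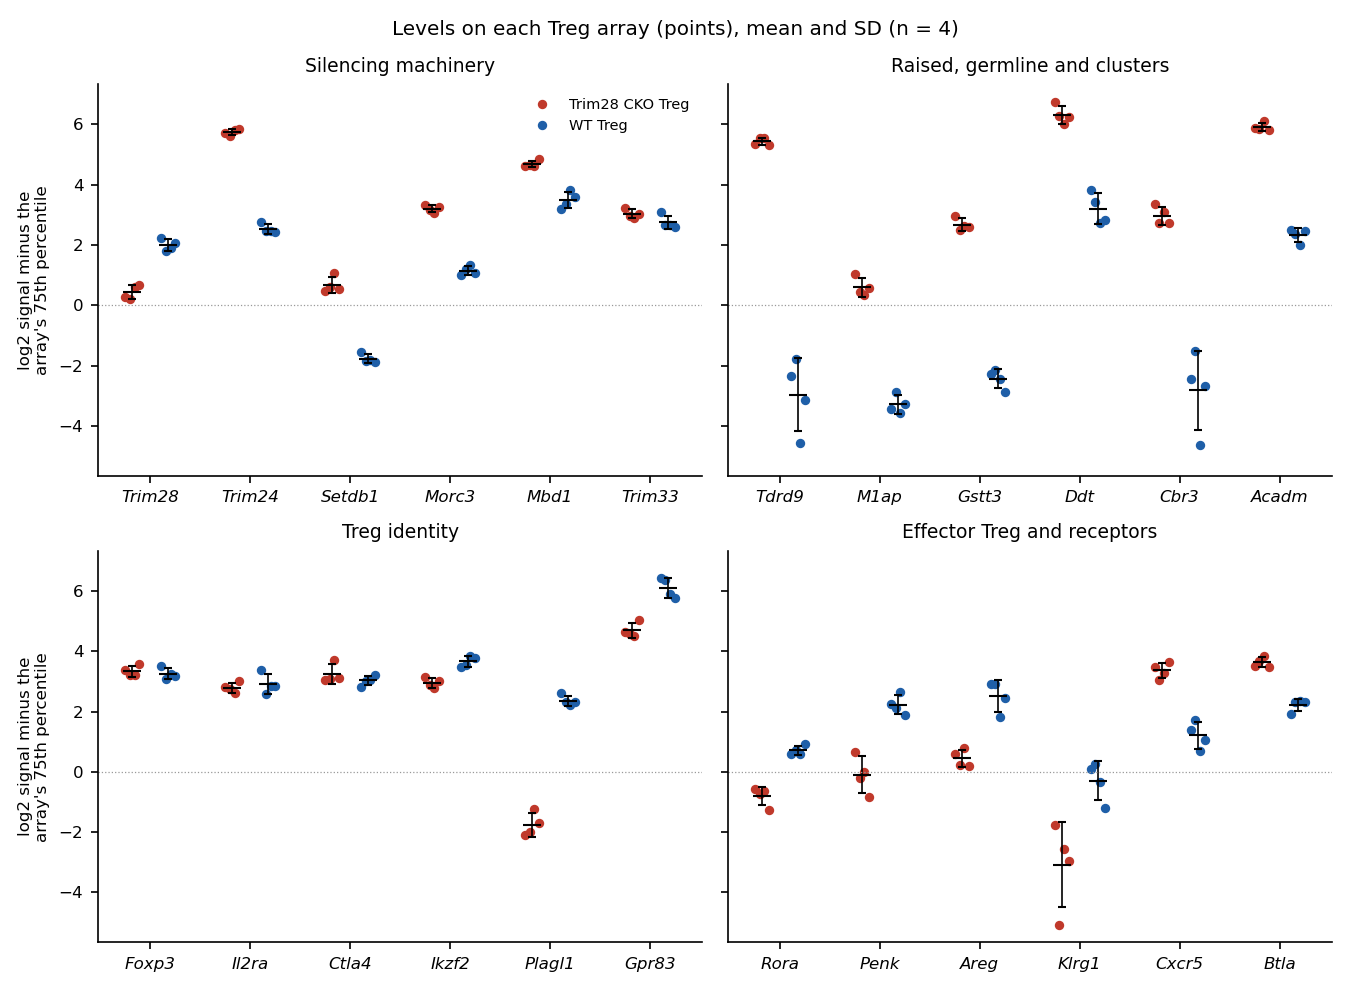
Level (log2 signal minus the array's 75th percentile) of 24 genes on each Treg array, in 4 panels: silencing machinery, germline and cluster genes, Treg identity genes, and effector Treg genes and receptors. CKO points stand left of WT points, and bars give the mean ± SD of n = 4 arrays; Trim24, Setdb1, Tdrd9, Gstt3 and Plagl1 separate fully, whereas Foxp3, Il2ra and Ctla4 overlap.

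Genes that are normally read in germ cells included some of the largest rises. Of a list of 47 germline and meiosis genes 19 passed the filter on dim probes. Of these 4 rose (21.1%, beside 2.47% of all genes) and none fell. Their median was 0.42 over the 19, and -0.08 with quantile normalization or with the authors' normalized values. Because a gene that is dark in WT Treg passes the filter mainly where CKO cells express it, the 19 are not a sample of the list.

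Tdrd9, an RNA helicase of the piRNA pathway that silences transposons in male germ cells, stood at 5.34, 5.55, 5.54 and 5.32 in CKO Treg, against -2.36, -1.78, -4.58 and -3.14 in WT Treg. The WT values were spread widely at the lower end of detection, with 3 arrays above background, while the CKO values lay close together. M1ap, named for its part in meiosis I, was 1.02, 0.44, 0.34 and 0.57 in CKO Treg, against -3.45, -2.87, -3.56 and -3.28 in WT Treg, 14.7-fold higher (3.88 ± 0.26, adjusted p = 1.28e-09). Stag3, a meiotic cohesin subunit, was above background on all 4 CKO arrays (mean level -2.27) and on none of the WT arrays (mean -5.47), at least 4.18-fold higher (adjusted p = 8.46e-05). Dppa4, a gene of early embryos and pluripotent cells, was above background on 2 CKO arrays only (2.06 ± 0.41, adjusted p = 0.00311), so its fitted size is uncertain. Its call was kept with the replicate block (0.0156). The call was lost with the 8 Treg arrays alone, age as a covariate, normexp correction or a signal floor.

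The promoter window of Tdrd9 is given because this gene had the largest fitted rise among genes detected in both groups. It lies at chr12:111971309-111971608 on the plus strand (RefSeq, GRCm38.p6) and holds 10 CG dinucleotides, shown in capitals.
Tdrd9: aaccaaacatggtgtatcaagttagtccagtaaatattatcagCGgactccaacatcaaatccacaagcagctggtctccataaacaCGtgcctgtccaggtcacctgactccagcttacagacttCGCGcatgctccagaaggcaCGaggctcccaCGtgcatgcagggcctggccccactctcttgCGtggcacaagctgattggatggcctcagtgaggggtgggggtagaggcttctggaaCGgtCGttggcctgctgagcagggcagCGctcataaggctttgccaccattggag

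Imprinted genes, another class that Trim28 is known to guard, did not move together. Of the 23 measured, 0 rose and 1 fell (4.35%, beside 1.84% of all genes), with a median of 0.01. The 1 that fell was Plagl1, described below.

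Called rises lay next to each other in the genome more often than called falls. Of the 324 called rises that could be placed in gene order, 88 (27.2%) had a nearest measured neighbour that also rose, against 4.76% of all 12818 placed genes. Without neighbours of like name, which can be copies of one gene, 58 (17.9%) remained. For the 280 placed falls the count was 25 (8.93%, against 4.27% of all genes). There were 12 runs of at least 3 neighbouring rises, holding 44 genes, and 1 run of falls. Copies within a cluster can share probe sequence, which was not tested.

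The longest run held 6 genes on chromosome 10: Cabin1, Ddt, Gstt3, Gstt1, Gstt4 and Gstt2. The Gstt genes encode theta-class glutathione transferases, which detoxify small electrophiles, and Ddt encodes D-dopachrome tautomerase, a relative of the cytokine Mif. Ddt stood at 6.74, 6.27, 6.00 and 6.25 in CKO Treg, against 3.81, 3.44, 2.74 and 2.84 in WT Treg, 8.62-fold higher (3.11 ± 0.22, adjusted p = 3.6e-09). Gstt2 was 2.95, 2.77, 3.05 and 2.79 in CKO Treg, against 0.29, -0.17, -0.06 and -0.27 in WT Treg, 7.7-fold higher (2.94 ± 0.18, adjusted p = 2.4e-10). Gstt3 was 2.98, 2.49, 2.62 and 2.60 in CKO Treg, against -2.27, -2.15, -2.45 and -2.87 in WT Treg.

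The other Gstt genes of this run rose from near or below background. Gstt1 was 0.69, -0.06, 0.27 and 0.07 in CKO Treg, against -5.28, -4.6, -6.29 and -5.29 in WT Treg, where 1 array was above background. Gstt4 was above background in CKO alone, at a mean of -0.98 against -5.17 in WT Treg, and at least 10.3-fold higher (adjusted p = 1.36e-11). Beyond Gstt2 the next genes were not called: Mif differed by 0.22 ± 0.19 (adjusted p = 0.73), Derl3 by 0.88 ± 0.61 and Smarcb1 by 0.09 ± 0.14. Cabin1 at the other end differed by 0.50 ± 0.14, a call (adjusted p = 0.0444) that was lost with the replicate block (0.203) and on leaving out any single array except CKO 1 (CKO 2, 0.084; CKO 3, 0.141; CKO 4, 0.122; WT 1, 0.0666; WT 2, 0.088; WT 3, 0.0899; WT 4, 0.1). Other Cabin1 probes, above background on all 8 Treg arrays, gave larger differences, 1.06 ± 0.17 (adjusted p = 0.000269) and 1.07 ± 0.23 (0.00716). Beyond Cabin1, Susd2 (0.76 ± 0.51) was not called and Ggt5 (0.58 ± 0.16, adjusted p = 0.0361) was.

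Promoter windows of neighbours in this run are shown as a pair because the genes rose together while their starts differ in CG content. Gstt3 lies at chr10:75781373-75781672 and Ddt at chr10:75773325-75773624, both on the minus strand (RefSeq, GRCm38.p6). The first holds 3 CG dinucleotides and the second 16, in capitals, and the quartiles over all windows in that table are 3 and 21.
Gstt3: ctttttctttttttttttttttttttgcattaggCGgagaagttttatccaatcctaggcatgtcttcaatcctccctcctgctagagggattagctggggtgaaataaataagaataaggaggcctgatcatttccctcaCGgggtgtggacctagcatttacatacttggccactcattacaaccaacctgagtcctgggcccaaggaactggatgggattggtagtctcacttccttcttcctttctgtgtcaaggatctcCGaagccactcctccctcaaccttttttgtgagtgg
Ddt: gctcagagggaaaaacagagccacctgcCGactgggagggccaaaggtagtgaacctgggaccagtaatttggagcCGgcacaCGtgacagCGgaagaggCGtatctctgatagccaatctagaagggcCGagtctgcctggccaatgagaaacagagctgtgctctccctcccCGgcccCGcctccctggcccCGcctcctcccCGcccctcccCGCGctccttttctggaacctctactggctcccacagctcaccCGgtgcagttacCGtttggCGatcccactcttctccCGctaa

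On chromosome 16 a run of 4 held Cbr3, Dop1b, the unnamed transcript 2310043M15Rik and Morc3. Cbr3, a carbonyl reductase, was 3.35, 2.73, 3.09 and 2.74 in CKO Treg, against -2.45, -1.53, -4.63 and -2.67 in WT Treg. Dop1b was 5.13, 5.22, 5.33 and 5.37 in CKO Treg, against 3.37, 3.37, 3.02 and 3.04 in WT Treg, 4.18-fold higher (2.06 ± 0.15, adjusted p = 7.44e-09), while a second probe gave 1.01 ± 0.28 (adjusted p = 0.0432). The flanking genes measured, Cbr1 (0.22 ± 0.20) and Chaf1b (0.33 ± 0.16), were not called.

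A run of 3 on chromosome 3 held St6galnac3, Rabggtb and Acadm. Acadm, the medium-chain acyl-CoA dehydrogenase of mitochondrial fatty acid oxidation, was 5.89, 5.83, 6.11 and 5.81 in CKO Treg, against 2.51, 2.37, 1.99 and 2.47 in WT Treg, 11.9-fold higher (3.58 ± 0.15, adjusted p = 1.5e-12). Rabggtb, a subunit of the enzyme that attaches lipid to Rab proteins, was 3.53, 3.55, 3.80 and 3.79 in CKO Treg, against 1.70, 1.53, 1.58 and 1.85 in WT Treg, 4.0-fold higher (2.00 ± 0.15, adjusted p = 6.78e-09). Neither gene's groups overlapped, and Pigk (-0.19 ± 0.15) and Tyw3 (0.57 ± 0.58, above background on no Treg array) on the flanks were not called.

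Further neighbours rose in pairs. On chromosome 15 the GPI-anchored surface proteins Ly6d and Ly6k rose side by side. Ly6d was 6.05, 5.99, 5.65 and 5.65 in CKO Treg, against 2.10, 2.93, -0.09 and 0.80 in WT Treg (4.40 ± 0.60, adjusted p = 5.1e-05), and Ly6k 4.78, 4.25, 3.57 and 4.71 in CKO Treg, against 1.93, 0.49, 0.62 and 2.15 in WT Treg (3.03 ± 0.51, adjusted p = 0.000596). Also on chromosome 15, the hair keratin Krt87 was above background in CKO Treg alone, with a mean of -0.29 against -5.41 in WT Treg, at least 16.7-fold higher (adjusted p = 2.81e-07). Its neighbour Krt86 was at -0.49, -0.54, -0.12 and -0.51 in CKO Treg, against -5.0, -4.81, -4.75 and -3.73 in WT Treg, where 1 array was above background.

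**Figure D3:**
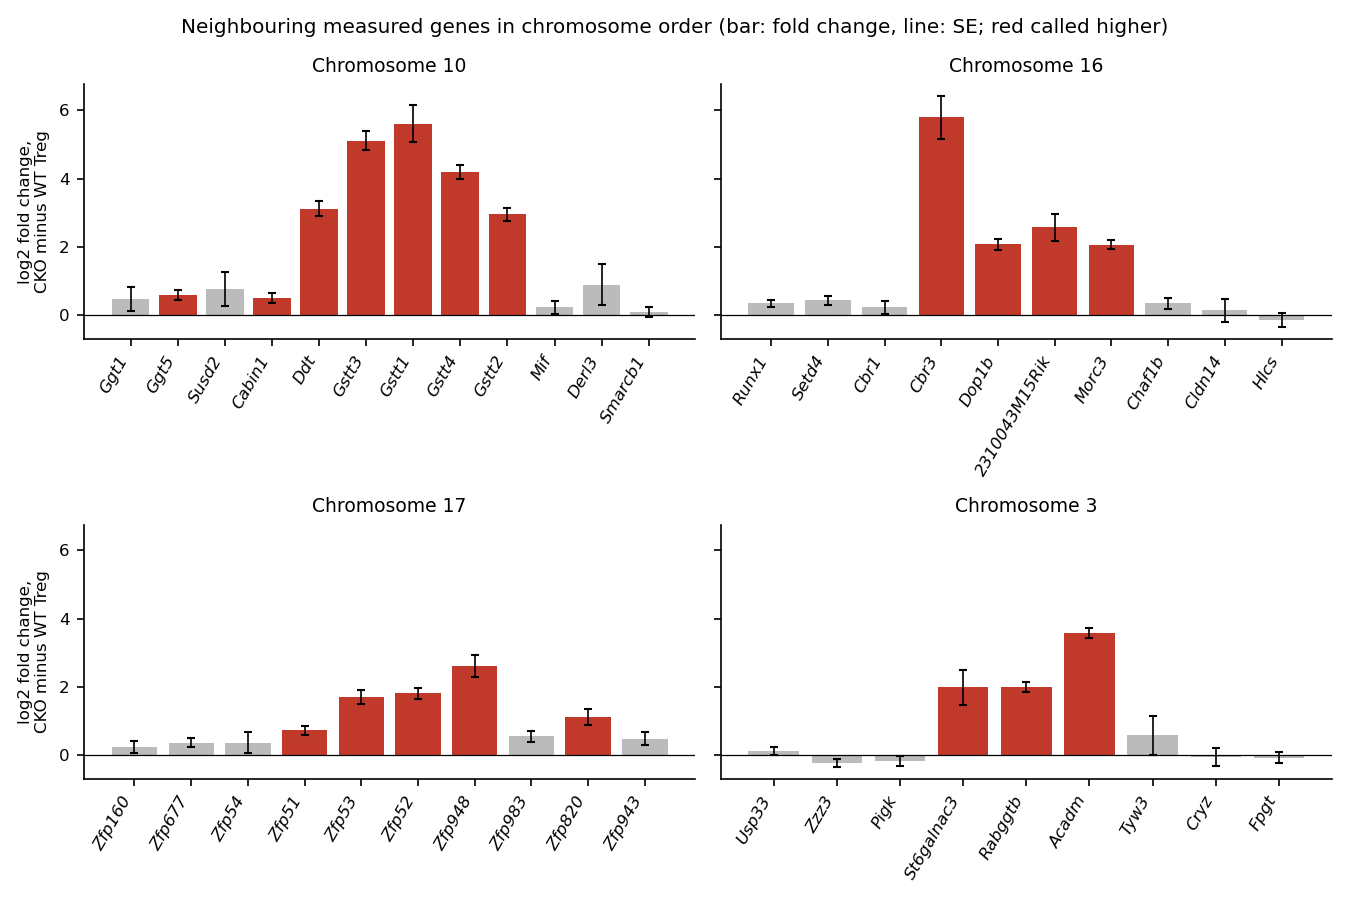
Log2 difference between CKO and WT Treg (bars, ± SE) for neighbouring measured genes in gene order at 4 loci, on chromosomes 10, 16, 17 and 3. Red bars are genes called higher. Genes beyond the runs range from -0.23 for Zzz3 to 1.12 for Zfp820, which was called. They include the called Ggt5 (0.58) and the uncalled Smarcb1 (0.09) and Derl3 (0.88).

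Zinc finger genes rose more often than the background. Of 287 measured genes whose names begin with Zfp, 32 rose (11.1%, against 2.47% of all genes) and 3 fell (1.05%, against 1.84%). The list median was 0.15 and 188 of the 287 lay above 0. With the replicate block 7 rose and 1 fell, where 180 of all 16489 genes rose and 68 fell. With normexp correction 5 rose and 0 fell, where 71 of all genes rose and 10 fell. The name marks a zinc finger and not a KRAB domain, and no protein table was used here to separate them.

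The rises lay together. Of the 32, 20 had a nearest measured neighbour that also rose. Chromosome 17 held 11 of the 32 among its 35 measured Zfp genes, whose median was 0.42, whereas chromosome 7 held 5 among 77, with a median of 0.12. Zfp52 on chromosome 17 was 5.37, 5.04, 5.20 and 5.28 in CKO Treg, against 3.42, 3.35, 3.61 and 3.27 in WT Treg, 3.5-fold higher (1.81 ± 0.17, adjusted p = 2.79e-07). Its neighbour Zfp53 was 3.90, 3.53, 3.81 and 3.91 in CKO Treg, against 1.83, 1.83, 2.48 and 2.23 in WT Treg, 3.24-fold higher (1.70 ± 0.20, adjusted p = 9.34e-06).

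Zfp948 in the same run stood at 0.85, 0.38, 0.39 and 0.39 in CKO Treg, against -2.20, -1.74, -1.43 and -3.08 in WT Treg (2.62 ± 0.32, adjusted p = 1.37e-05). The groups of these 3 genes did not overlap. Zfp160, Zfp677 and Zfp54 on one side of the run differed by 0.24 to 0.36 and were not called. On the other side Zfp983 (0.55 ± 0.16) was not called and Zfp820 (1.12 ± 0.24, adjusted p = 0.00608) was. Elsewhere Zfp781, on chromosome 10, was 3.13-fold higher (1.65 ± 0.18, adjusted p = 2.34e-06). Of the 32 rises 17 were also called higher in unstimulated naive cells.

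The 3 falls in this family lay near the threshold. Zfp608, with a difference of -1.75 ± 0.47 (adjusted p = 0.0335), lost the call on leaving out any of the 8 arrays (lowest adjusted p 0.0546 without CKO 2, then 0.0579 without WT 1, 0.0626 without CKO 1, 0.0672 without WT 4, 0.0716 without CKO 3, 0.0771 without WT 3, 0.079 without WT 2 and 0.0916 without CKO 4), while the difference stayed between -1.84 and -1.62 and the call was kept with the replicate block (0.0197). Its other probes gave -1.735 (adjusted p = 0.126) and 0.17 (0.969). The others, Zfp446 (-0.95 ± 0.26) and Zfp783 (-0.61 ± 0.16), lost it with the replicate block (0.0908 and 0.202) and without several single arrays. For Zfp446 these were CKO 1 (0.102), CKO 2 (0.0837), CKO 4 (0.088), WT 1 (0.119), WT 3 (0.0951) and WT 4 (0.0629). For Zfp783 they were CKO 1 (0.0618), CKO 2 (0.0786), CKO 3 (0.0859), WT 2 (0.0811) and WT 3 (0.104). In these fits the difference was -0.96 to -0.85 for Zfp446 and -0.61 to -0.52 for Zfp783.

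Further genes were among the 20 largest rises detected in both groups. Nars2, the mitochondrial asparaginyl-tRNA synthetase, was 0.80, 0.98, 1.24 and 0.99 in CKO Treg, against -2.51, -3.02, -2.95 and -2.69 in WT Treg, 13.9-fold higher (3.79 ± 0.20, adjusted p = 2.31e-11), and a second probe for it gave 3.99. Pgpep1l, a pyroglutamyl-peptidase-like gene, was 4.69, 5.0, 4.94 and 5.14 in CKO Treg, against -0.03, 0.54, 1.63 and 1.81 in WT Treg, 15.5-fold higher (3.96 ± 0.32, adjusted p = 3.44e-08). Wfdc2, a secreted protease-inhibitor-like protein of epithelia, was 3.58, 3.61, 3.40 and 3.45 in CKO Treg, against 0.95, 0.84, -0.01 and 0.36 in WT Treg, 7.87-fold higher (2.98 ± 0.38, adjusted p = 2.19e-05). For each of these genes the lowest CKO array lay over 1 log2 unit above the highest WT array.

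Several genes appeared in CKO Treg alone. F12, coagulation factor XII, was on average at 1.27 in CKO Treg, against -5.66 in WT Treg, at least 49.0-fold higher. Kcnf1, a modifying subunit of voltage-gated potassium channels, was at least 17.5-fold higher, and Rbpms, an RNA-binding protein, at least 17.2-fold. Lix1 was at least 15.1-fold higher and Yes1, a Src-family kinase, at least 10.2-fold. A bound of this kind sets the CKO mean against a WT mean in which each array contributes either the probe's measured signal or, where higher, its detection limit, the dimmest signal still well above background. The limma adjusted p-values of these 5 genes ran from 1.31e-11 for F12 to 1.98e-06 for Lix1.

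Within the Treg core list, 4 of 22 measured genes fell (18.2%, beside 1.84% of all genes) and none rose (1 rose with quantile normalization or the authors' values), and the list median was 0.07. The lineage factor Foxp3 and its partners were not among the 4. Ikzf2 (Helios) was 3.15, 2.88, 2.77 and 3.00 in CKO Treg, against 3.48, 3.55, 3.85 and 3.77 in WT Treg. All CKO values were below all WT values, but the difference of -0.71 ± 0.23 was not called (adjusted p = 0.0882). Other Ikzf2 probes gave -0.94, -0.66, -0.43 and -0.25, none of them called. Ctla4, the inhibitory receptor that Treg need for suppression, overlapped at 3.03, 3.07, 3.72 and 3.11 in CKO Treg, against 2.83, 3.03, 3.06 and 3.21 in WT Treg (0.20 ± 0.28, adjusted p = 0.849).

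Plagl1, an imprinted gene for a zinc finger transcription factor, had the largest fitted fall. It stood at -2.10, -2.0, -1.23 and -1.68 in CKO Treg, against 2.60, 2.32, 2.20 and 2.30 in WT Treg (-4.11 ± 0.28, adjusted p = 2.65e-09). The groups were over 3 log2 units apart, and a second probe gave -4.74. In WT cells Plagl1 was 2.36 ± 0.17 in Treg, -3.62 ± 0.61 in unstimulated naive and -0.49 ± 0.49 in stimulated naive cells (SD, n = 4), so the level in CKO Treg lay below the WT Treg level and above the WT unstimulated naive level. Its promoter window is printed because it is an imprinted gene that fell in CKO Treg, and Trim28 is known to guard imprints. It lies at chr10:13090582-13090881 on the plus strand (RefSeq, GRCm38.p6) and holds 26 CG dinucleotides, in capitals.
Plagl1: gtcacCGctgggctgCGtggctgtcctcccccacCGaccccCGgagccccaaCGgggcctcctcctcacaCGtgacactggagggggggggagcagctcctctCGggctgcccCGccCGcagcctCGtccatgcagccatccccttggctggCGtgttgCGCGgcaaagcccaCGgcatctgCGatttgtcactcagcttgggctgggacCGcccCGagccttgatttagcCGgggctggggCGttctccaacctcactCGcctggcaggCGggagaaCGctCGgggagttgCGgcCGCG

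The other 3 were Gpr83, Penk and Klrg1. Gpr83, a receptor abundant in Treg, was 4.65, 4.58, 4.49 and 5.05 in CKO Treg, against 6.43, 6.36, 5.89 and 5.76 in WT Treg, 2.67-fold lower with no overlap (-1.42 ± 0.20, adjusted p = 8.49e-05; 0.0608 with the replicate block). Penk, which encodes the opioid precursor proenkephalin, ran from -0.84 to 0.67 in CKO Treg and from 1.88 to 2.65 in WT Treg, 4.98-fold lower (-2.32 ± 0.51, adjusted p = 0.00751). Klrg1, an inhibitory receptor of terminally differentiated Treg, was -1.76, -5.07, -2.55 and -2.97 in CKO Treg, against 0.10, 0.25, -0.35 and -1.19 in WT Treg. The array CKO 2 was far below the others, and without it the Klrg1 difference was no longer called (adjusted p = 0.0534, beside 0.0121 with it; 0.146 with the replicate block). With the block 2 of the 22 Treg core genes fell.

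Among 29 effector and tissue Treg genes 6 fell (20.7%, beside 1.84% of all genes) and none rose, with a median of -0.21. With the replicate block 2 fell, where 68 of all 16489 genes did, and with normexp correction none, where 10 of all genes did. The block changed the calls of Areg, Il10, Klrg1 and Nfil3. The 6 were Rora, Areg, Klrg1, Nfil3, Il10 and Ccr8.

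Rora, a nuclear receptor of tissue Treg and innate lymphoid cells, was the one with the most even fall: -0.58, -0.72, -0.65 and -1.26 in CKO Treg, against 0.59, 0.74, 0.61 and 0.91 in WT Treg. The fall was 2.86-fold (-1.51 ± 0.22, adjusted p = 0.000106), and its other probes gave -1.61 and -1.44. Areg, amphiregulin, a tissue-repair ligand of the EGF receptor, was 0.59, 0.22, 0.78 and 0.19 in CKO Treg, against 2.91, 2.91, 1.81 and 2.44 in WT Treg (-2.07 ± 0.37, adjusted p = 0.0011; 0.0531 with the replicate block). Nfil3, a basic leucine zipper factor, was 1.44, 1.88, 2.29 and 1.79 in CKO Treg, against 3.23, 2.64, 2.46 and 3.07 in WT Treg (-1.0 ± 0.21, adjusted p = 0.00673; 0.198 with the block). None of the 3 pairs of groups overlapped.

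The calls of Il10 and Ccr8 lay near the threshold. Il10, the suppressive cytokine, was -2.77, -2.62, -2.82 and -2.33 in CKO Treg, against -2.02, -1.92, -1.73 and -0.99 in WT Treg (-0.97 ± 0.26, adjusted p = 0.0319; 0.0617 with the block). It was no longer called without CKO 1 (0.0843), CKO 2 (0.0674), CKO 3 (0.0903), WT 3 (0.0595) or WT 4 (0.114), with differences of -0.99 to -0.75. Ccr8, a chemokine receptor of tissue Treg, was above background on 1 CKO array and 4 WT arrays (-1.96 ± 0.52, adjusted p = 0.0329), and lost the call without CKO 1 (0.0886), CKO 2 (0.0697), CKO 3 (0.0808), WT 3 (0.109) or WT 4 (0.0981), with differences of -1.97 to -1.73. Genes that stayed uncalled in this list included the effector regulators Prdm1 (-0.31), Irf4 (-0.52), Batf (0.48), Gata3 (-0.19) and Maf (-0.24).

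Of 17 suppressive mediators 3 fell (17.6%, beside 1.84% of all genes), the Penk, Areg and Il10 already given, and none rose, with a median of -0.10 (0.02 with normexp correction; 1 fell with the block). Tgfb1 stood at 1.67, 1.80, 1.30 and 1.82 in CKO Treg, against 2.12, 1.93, 1.65 and 1.70 in WT Treg, overlapping (-0.20 ± 0.19, adjusted p = 0.747). The ectoenzymes Entpd1 (CD39) and Nt5e (CD73), which make adenosine, differed by 0.18 and 0.06 and were not called. Genes of central and naive-like T cells, the counterpart of the effector list, gave 0 calls among 27 (median -0.14). Their differences ran from -1.80 to 0.34, and only 8 lay above 0, among them Ccr7 (0.34) and Tcf7 (0.21).

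Cytokine and helper lineage genes showed isolated falls. Ifng, the Th1 cytokine, was -0.87, -1.30, -1.26 and -1.10 in CKO Treg, against 0.46, 0.16, 0.29 and 1.11 in WT Treg (-1.64 ± 0.40, adjusted p = 0.0184). The groups did not overlap, but the call was lost without CKO 2 (0.0535), CKO 3 (0.0504) or WT 4 (0.065). Eomes, a T-box factor of cytotoxic T and NK cells, was -3.52, -3.35, -3.63 and -6.57 in CKO Treg, where 1 array was above background, against -0.49, -0.16, -1.03 and -0.57 in WT Treg (-3.71 ± 0.61, adjusted p = 0.000488; 0.0693 with the block). The summed CD8, NK and unconventional T marker level overlapped between the groups (6.53 to 11.9 in CKO Treg, 7.76 to 13.0 in WT Treg), and its part in the Eomes and Ifng differences was not tested. Il17a, the Th17 cytokine, was above background on none of the 24 arrays.

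Surface receptors moved in both directions. Of 25 costimulatory and inhibitory receptors 2 rose and 2 fell, and of 25 homing receptors also 2 rose and 2 fell. Each count is 8% of its list, beside 2.47% of all genes higher and 1.84% lower. Cd200, an inhibitory ligand, was 3.48, 3.44, 3.08 and 3.61 in CKO Treg, against 1.91, 1.60, 1.76 and 1.61 in WT Treg, 3.2-fold higher (1.68 ± 0.18, adjusted p = 1.75e-06). Its neighbour on chromosome 16, Btla, an inhibitory receptor of lymphocytes, was 3.52, 3.69, 3.84 and 3.48 in CKO Treg, against 1.93, 2.31, 2.34 and 2.32 in WT Treg, 2.66-fold higher (1.41 ± 0.18, adjusted p = 3.05e-05).

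Cxcr5, which guides cells to B cell follicles, was 3.49, 3.05, 3.26 and 3.65 in CKO Treg, against 1.38, 1.73, 0.69 and 1.05 in WT Treg, 4.44-fold higher (2.15 ± 0.32, adjusted p = 0.000154). The groups of Cd200, Btla and Cxcr5 did not overlap. B cells also express these 3 genes and Ly6d. The summed B cell marker level was 139, 140, 87.5 and 125 in CKO Treg, against 79.6, 99.2, 67.3 and 84.3 in WT Treg. The part of B cells in these rises was not tested.

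The remaining receptor calls were small or near background. Cd5 and Cd6, neighbours on chromosome 19 that dampen TCR signalling, differed by -0.53 ± 0.13 and -0.49 ± 0.13 (adjusted p = 0.0234 and 0.0355). Cd5 lost the call without CKO 1 (0.0748), CKO 3 (0.0667), WT 1 (0.0528) or WT 2 (0.0761), and Cd6 without CKO 2 (0.101), CKO 3 (0.116), WT 1 (0.137) or WT 2 (0.0829). Both lost it with the block (0.114 and 0.162), and another Cd6 probe gave -0.25. Gpr15, a receptor for homing to the colon, was above background in WT Treg alone, at a mean of -2.92 against -5.29 in CKO Treg, and at least 1.88-fold lower in CKO Treg (adjusted p = 0.00224; 0.0811 with the block). Ccr9, a gut-homing receptor, differed by 1.16 ± 0.30 (adjusted p = 0.0273; 0.0531 with the block), and lost the call without CKO 1 (0.0598), CKO 2 (0.0594), CKO 3 (0.0721), WT 2 (0.059), WT 3 (0.0721) or WT 4 (0.0829).

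Further genes were among the 20 largest falls detected in both groups. Ecm1, extracellular matrix protein 1, was 4.11, 4.50, 4.03 and 4.75 in CKO Treg, against 6.01, 6.38, 6.29 and 6.27 in WT Treg, 3.7-fold lower (-1.89 ± 0.24, adjusted p = 2.59e-05). Cavin1, a coat protein of caveolae, was -1.82, -2.60, -2.12 and -2.41 in CKO Treg, against 0.20, 0.10, -0.78 and 0.14 in WT Treg, 4.45-fold lower (-2.15 ± 0.20, adjusted p = 1.64e-07). Rgs16, which ends signalling by G-protein-coupled receptors, was 0.82, 0.60, 0.89 and 1.31 in CKO Treg, against 2.70, 2.28, 2.71 and 2.97 in WT Treg, 3.4-fold lower (-1.76 ± 0.32, adjusted p = 0.00116). In none of these 3 did a CKO array reach the lowest WT array.

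Both subunits of soluble guanylate cyclase, the nitric oxide receptor, fell as neighbours on chromosome 3. Gucy1a1 was -1.78, -2.49, -2.69 and -1.80 in CKO Treg, against 0.06, 0.64, 0.57 and -0.16 in WT Treg, 5.52-fold lower (-2.47 ± 0.35, adjusted p = 9.06e-05). Gucy1b1 was -3.60, -2.92, -3.58 and -3.70 in CKO Treg, where 2 arrays were above background, against -1.99, -1.38, -1.66 and -2.50 in WT Treg (-1.57 ± 0.29, adjusted p = 0.00153). Galnt14, which starts mucin-type O-glycans, was seen in WT Treg alone, at a mean of -1.39 against -4.75 in CKO Treg, and at least 5.43-fold lower in CKO Treg (adjusted p = 2.57e-05).

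Signalling pathways that Treg depend on showed few calls. Of 19 genes of IL-2 and STAT5 signalling none was called and the median was 0.11. Their differences ran from -0.56 to 0.56, and 11 lay above 0, among them Socs1 (0.56), Cish (0.19) and Il2rb (0.12). With quantile normalization or the authors' values the median was 0.02 and 1 gene was called higher. Of 27 TGF-beta pathway genes, a pathway that helps to induce Foxp3, 1 rose (3.7%, beside 2.47% of all genes) and none fell, with a median of -0.13. That 1 was the ligand Tgfb3, at 0.20, 1.00, 1.93 and 0.99 in CKO Treg, against -1.71, -2.08, -2.16 and -1.67 in WT Treg, whereas the receptors Tgfbr1 (0.07) and Tgfbr2 (0.08) and the mediators Smad2 (-0.08), Smad3 (-0.30) and Smad4 (-0.13) were not called. Of 40 interferon-stimulated genes 1 rose (2.5%) and none fell, with a median of -0.11. The riser was Usp18, an inhibitor of interferon signalling (0.87 ± 0.19, adjusted p = 0.00721; 0.0863 with the block).

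**Figure D4:**
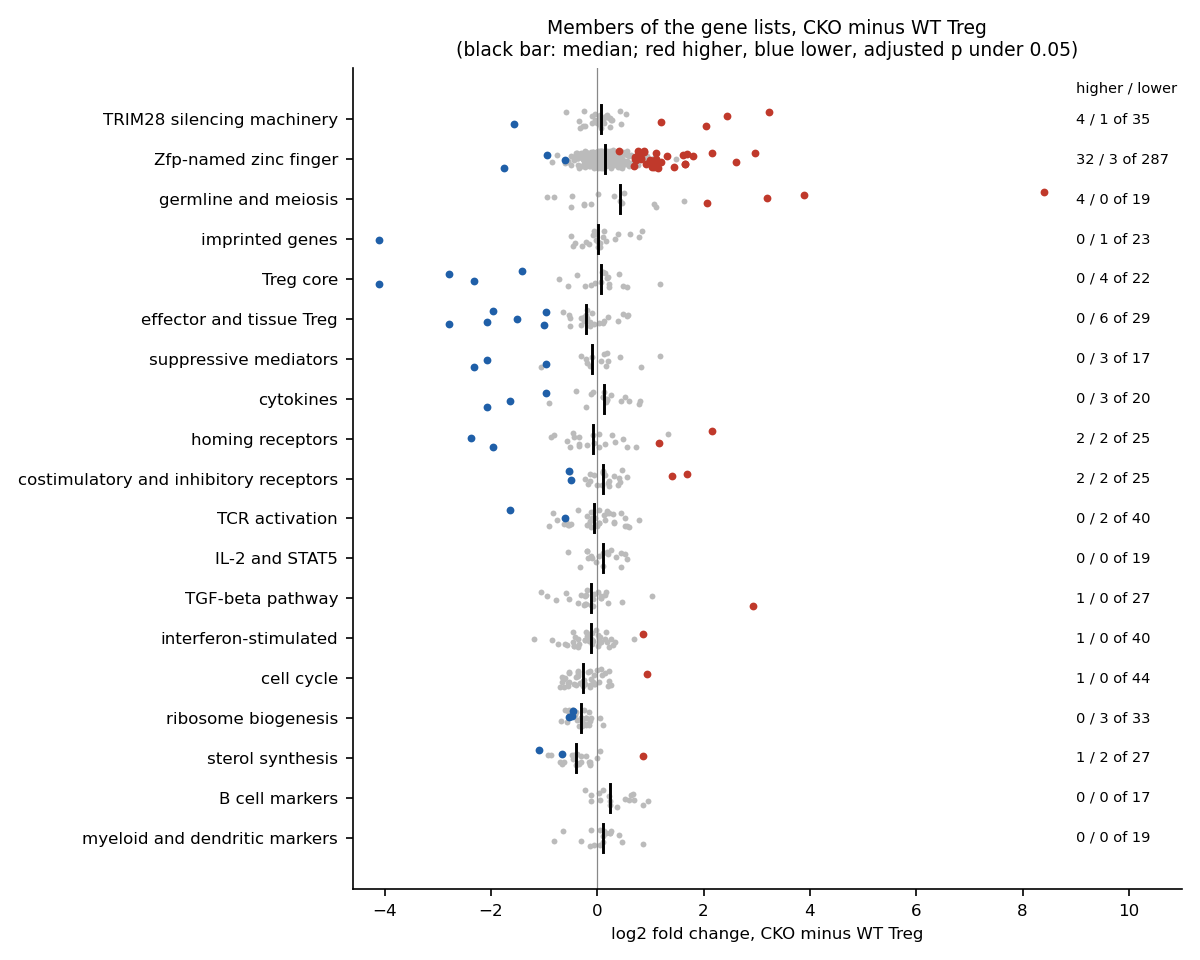
Log2 difference between CKO and WT Treg for the measured members of 19 gene lists, 1 point per gene, with the list median as a black bar. Red points were called higher and blue points lower; the numbers at the right give the counts, among them 4 higher and 1 lower of 35 for the silencing machinery, 32 and 3 of 287 for the Zfp genes, 0 and 6 of 29 for effector Treg genes.

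The genotype difference of Treg was also set against that of unstimulated naive cells. The naive levels come from other arrays, but both differences share each gene's spread, estimated from all 24 arrays. The call lists are therefore not independent. In naive cells 1291 genes were called higher in CKO (7.83% of the genes tested) and 1797 lower (10.9%). Of the 407 Treg rises 244 were also rises there, which is 60% of the Treg list and 18.9% of the naive list. Of the 303 Treg falls 174 were also falls, which is 57.4% of the Treg list and 9.68% of the naive list. None of the 407 was lower in CKO naive cells. Of the 303, Fam43a (-1.30 in Treg, 1.44 in naive cells) and Whrn (-0.71 and 0.50) were higher there, Whrn being named after its values were seen. The Treg call of Fam43a was lost without CKO 1 (0.12), CKO 4 (0.0785), WT 1 (0.0899), WT 2 (0.082), WT 3 (0.057) or WT 4 (0.0549) and with the replicate block (0.0846). In all 3 states, stimulated naive cells included, 155 genes were called higher and 92 lower.

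A test of the difference between the Treg and the unstimulated naive difference (interaction) called 65 genes, which is 0.394% of those tested, 39 with a higher value in Treg and 26 with a lower one. Of the 65, 20 were called in Treg and not in naive cells and 23 in naive cells and not in Treg. If the tags that call CKO Treg TCR-stimulated are right, stimulation and cell type cannot be told apart in this test. At an unadjusted p under 0.05 the interaction held 2231 genes. Slc1a4 had one of the clearest of these differences.

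Slc1a4, a transporter of alanine, serine and other neutral amino acids, stood at 1.28, 1.16, 1.66 and 1.64 in CKO Treg and was above background on none of the WT Treg arrays, with values of -4.52, -5.96, -6.21 and -5.28. In unstimulated naive cells its mean was -3.25 ± 0.40 in CKO and -3.95 ± 0.75 in WT cells (SD, n = 4), a difference of 0.70 ± 0.33 (SE, adjusted p = 0.144). In stimulated naive cells the means were -0.81 ± 0.23 in CKO and -1.42 ± 0.21 in WT cells. The interaction was 6.22 ± 0.47 (adjusted p = 2.95e-07). A second Slc1a4 probe gave 6.65 ± 0.34 in Treg. Because WT Treg were below background, the size of both fitted values is uncertain, and the bound is at least 52.1-fold higher in CKO Treg.

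The promoter window of Slc1a4 is shown because the gene was read in CKO Treg above every naive group. It lies at chr11:20332664-20332963 on the minus strand (RefSeq, GRCm38.p6) and holds 21 CG dinucleotides, in capitals. Of the 144 genes selected for naming, 107 had a window in that table.
Slc1a4: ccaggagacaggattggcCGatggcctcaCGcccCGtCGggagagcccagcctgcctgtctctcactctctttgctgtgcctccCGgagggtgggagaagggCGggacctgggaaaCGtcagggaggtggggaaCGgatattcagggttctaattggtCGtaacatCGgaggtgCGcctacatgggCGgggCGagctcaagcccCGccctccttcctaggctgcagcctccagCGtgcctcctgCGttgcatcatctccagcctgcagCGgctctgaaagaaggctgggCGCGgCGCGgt

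Other genes rose more in Treg than in naive cells. Setdb1 is described above. Acadm rose by 3.58 in Treg and 1.93 in unstimulated naive cells (interaction 1.65 ± 0.22, adjusted p = 0.000365), and Rabggtb by 2.00 and 0.56 (interaction 1.44 ± 0.21, adjusted p = 0.00121). Krt87 had means of -0.29 in CKO Treg and -4.70 in CKO unstimulated naive cells, and its interaction was 4.06. Adad2, a testis-expressed relative of the RNA-editing adenosine deaminases, averaged -0.11 in CKO Treg and was above background on none of the WT Treg arrays and none of the unstimulated naive arrays. The junction protein Cgnl1 likewise averaged -1.22 in CKO Treg and was above background on none of the other 20 arrays.

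For B4galt4 and Osbpl3 the rise was larger in naive cells. B4galt4, a galactosyltransferase, was 2.37, 2.10, 2.21 and 2.17 in CKO Treg, against -0.13, -0.39, -0.89 and -0.29 in WT Treg (2.64 ± 0.23), and differed by 4.23 in naive cells (interaction -1.59 ± 0.32, adjusted p = 0.0197). Osbpl3, a sterol-binding protein, was 2.31, 2.54, 2.52 and 2.58 in CKO Treg, against 0.34, 0.93, 0.60 and 0.89 in WT Treg (1.79 ± 0.23), and differed by 3.92 in naive cells (interaction -2.13 ± 0.33, adjusted p = 0.00264). The CKO levels of Osbpl3 were 2.49 in Treg and 1.17 in naive cells, and the WT levels were 0.69 in Treg and -2.75 in naive cells.

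Plagl1, Rora, Cavin1 and Galnt14 fell in Treg beyond their naive difference. The interaction was -3.13 ± 0.40 for Plagl1 (adjusted p = 0.000354), -1.87 ± 0.31 for Rora (0.0041) and -1.97 ± 0.28 for Cavin1 (0.00089), and -3.76 for Galnt14, which was above background on 2 CKO and 1 WT unstimulated naive arrays. The naive difference of Rora was 0.35 and that of Cavin1 -0.18, neither called. Their mean levels in WT Treg were 0.71 for Rora and -0.09 for Cavin1, against -1.29 and -3.28 in WT unstimulated naive cells.

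Other Treg genes had a negative interaction. Il2ra differed by 1.10 ± 0.16 in naive cells but by -0.12 in Treg (interaction -1.22, adjusted p = 0.00998). Its unstimulated naive means were low, -3.34 in CKO and -4.44 in WT cells, where 3 arrays were above background. Nrp1, a semaphorin receptor of thymic Treg, stood at a mean of -2.28 in CKO naive cells, against -4.32 in WT naive cells, while in Treg the means were -0.51 in CKO and -0.13 in WT cells (interaction -2.42, adjusted p = 0.0133). Itgb8, an integrin chain that activates TGF-beta, was above background on none of the unstimulated naive arrays, and in Treg averaged -1.54 in CKO and -0.47 in WT cells, a difference of -1.06 ± 0.34 that was not called (adjusted p = 0.0887) although the groups did not overlap. It was called lower with quantile normalization (0.0435), the authors' values (0.0441), the mean of probes (0.0321) and a signal floor (0.000404). Its interaction of -2.58 therefore rests on naive signals below background.

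**Figure D5:**
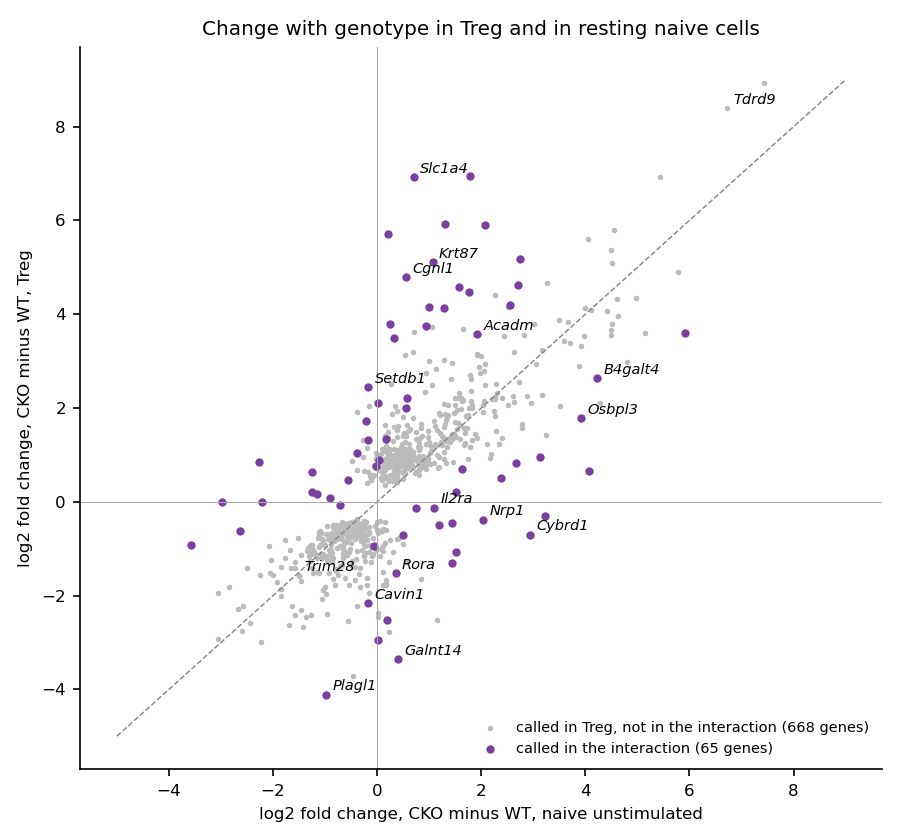
Genotype difference (log2 fold change, CKO minus WT) in Treg on the y axis against that in unstimulated naive cells on the x axis. Purple points are the 65 genes called in the interaction and grey points the 668 others called in Treg; the dashed line marks equal differences, with Slc1a4, Krt87 and Setdb1 above it and Plagl1, Rora and Il2ra below.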

How the data were processed

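RNA of 24 samples was hybridised to 1-colour Agilent 4x44K arrays and read with Feature Extraction 9.5, per the submitters' processing notes. The deposited scanner intensity was, per the file headers, background-subtracted and detrended within each array, with low values replaced by surrogates. The authors' normalized intensity values, which share 1 distribution over all arrays, served as an alternative.

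Outlier spots and control spots were left out, spots of a probe were averaged, and the log2 of the deposited intensity was reduced by each array's 75th percentile. Probes well above background on at least 3 of 4 arrays of any group were kept (25198 of 41174). A gene was its brightest kept probe. Of all probes 22951 were named by accession, 6659 by symbol, 3109 by synonym, and 8455 kept the file's name. Group means of all 24 arrays were fitted with limma 3.58.1 in R 4.3.3, with Benjamini-Hochberg adjustment over 16489 genes. The number of arrays limits the precision, with a median SE of 0.223. The fit was tested on simulated data.

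Members and lists were chosen with earlier results of these data known. Named genes were fixed members, the 20 largest separated changes per direction detected in both groups, up to 10 per direction detected in 1 group or in the interaction, up to 5 called members per list and direction, and neighbours called the same way. Some genes of the rule and of the lists are not reported here. Flanking genes and uncalled list members were added for context. Same-numbered CKO and WT samples share a slide, and their deviations from the group means correlated at 0.379, 0.546, 0.368 and 0.107, so the replicate block is a pairing by slide. Alternatives changed the background correction, normalization, filter, probe rule, samples, blocks, weights and floor.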

Additional observations from a re-analysis of the deposited data

Results flagged for a closer look

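Among 286 groups of 4 arrays checked for the named genes, 21 held 1 array far from the other 3, where chance gives about 1 in 20. In CKO Treg the far array was highest for Ctla4 (3.72, CKO 3), Gucy1b1 (-2.92, CKO 2), Krt86 (-0.12, CKO 3), Mbd1 (4.85, CKO 4) and Zfp948 (0.85, CKO 1). It was lowest for Eomes (-6.57, CKO 4), Stard4 (0.38, CKO 2) and Zfp458 (-2.35, CKO 4). In WT Treg the array WT 1 was highest for Bbc3 (4.55), Setdb1 (-1.55), Trim24 (2.76) and Trim33 (3.09), and lowest for Btla (1.93), Cd4 (-0.76) and Zfp608 (-0.40). WT 2 was highest for Luzp1 (-1.78), WT 3 was highest for Wfdc1 (-2.96) and lowest for Cavin1 (-0.77), and WT 4 was lowest for Cyp4a10 (-5.07), Cyp4f18 (-2.85) and Rad51b (-2.08).

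The genotype difference in Treg differed from that in unstimulated naive cells for 30 named genes by the interaction test. On the log2 scale, Treg minus naive, it was 6.22 for Slc1a4, 4.24 for Cgnl1, 4.06 for Krt87, 3.83 for Adad2, 3.18 for Rdh16f2, 3.16 for Krt86 and 3.02 for Yes1. It was 2.81 for Abca5, 2.71 for Cables1, 2.66 for Nacc2, 2.61 for Setdb1, 2.43 for Rbpms, 1.92 for Ube2e2, 1.65 for Acadm, 1.64 for Gstt4 and 1.44 for Rabggtb. On the negative side it was -3.76 for Galnt14, -3.64 for Cybrd1, -3.13 for Plagl1, -2.95 for Rln3, -2.74 for Fam43a, -2.71 for Spag16 and -2.58 for Itgb8. It was -2.42 for Nrp1, -2.32 for Cthrc1, -2.13 for Osbpl3, -1.97 for Cavin1, -1.87 for Rora, -1.59 for B4galt4 and -1.22 for Il2ra. Several of these values rest on groups that were not well above background and have no exact size. WT Treg were above it on no array for Slc1a4, Cgnl1, Krt87, Adad2, Rdh16f2, Yes1, Rbpms, Gstt4 and Cthrc1, and CKO Treg on none for Galnt14, Nacc2 and Spag16. Neither naive group was above it on any array for Cgnl1, Adad2, Rdh16f2, Spag16 and Itgb8, and WT naive cells were not for Abca5, Cthrc1, Krt86 and Yes1. Cybrd1, an iron reductase, differed by -0.70 in Treg (adjusted p = 0.0815; 0.0356 without CKO 4) and by 2.94 in naive cells.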

How the results depend on the processing

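Of 130 named genes called, 40 kept their call under each of the 22 alternatives in which they were tested, 8 of these leaving out an array, and 0 changed sign. Of 13 named genes not called, 4 were called under at least 1 alternative. Of the 90 that lost it at least once, 26 did so under normexp alone. The 710 calls became 81 with normexp, whose offset of 50 is added to CKO Treg arrays with a 75th percentile of 31.3 to 116. They became 365 with the 8 Treg arrays alone, 284 with age as a covariate and 248 with the replicate block, both on those arrays. Quantile normalization gave 1027 (47.5% higher, beside 57.3%) and the authors' values 1018 (47.8%). Leaving out 1 array gave 576 to 707, lowest without WT 1. Among the named genes the block removed 49 calls, which are marked beside the genes or lists the text describes. It changed no other call among the named genes. Block results of called genes added for context, such as Ggt5 and Zfp820, are not given here. The 65 interaction calls became 7 with normexp, 102 with quantile normalization, 101 with the authors' values, 31 with probes above background on all Treg arrays, 848 with array weights and 246 with a signal floor, and 52 to 92 on leaving out 1 array. The causes were not tested. Signs turned only for uncalled genes: Cd4 (-0.01 with normexp, -0.10 with the mean of probes, -0.09 to 0.16 on leaving out 1 array), Il2 (-0.07 quantile, -0.16 authors' values) and Il2ra (0.01 normexp, -0.23 to 0.03 on leaving out 1 array). Low signal of the CKO arrays limits what can be seen of weakly expressed genes.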

Other observations

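Ribosome biogenesis, sterol synthesis and cell cycle lists leaned downwards in CKO Treg with few calls. With normexp correction their medians were -0.16, -0.15 and -0.06. Of 33 ribosome biogenesis genes 0 rose and 3 fell (9.09%, beside 1.84% of all genes), with a median of -0.30 beside 0.005 over all genes, and 31 lay below 0. With quantile normalization or the authors' values 10 fell, and with the replicate block 0. The 3 were Rrs1 (-0.53), Noc2l (-0.47) and Utp20 (-0.45), each an assembly factor or nucleolar protein. Rrs1 lost its call without CKO 2 (0.0694), CKO 3 (0.0705), WT 1 (0.0904) or WT 3 (0.052), Noc2l without CKO 2 (0.0944), CKO 3 (0.109), WT 1 (0.124) or WT 3 (0.0513), and Utp20 without CKO 2 (0.0728), CKO 3 (0.0935), WT 1 (0.115) or WT 2 (0.0653). A further Utp20 probe gave 0.25.

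Of 27 sterol synthesis genes 1 rose and 2 fell (3.7% and 7.41%, beside 2.47% and 1.84% of all genes). The median was -0.40, and 25 lay below 0. The mevalonate enzyme Mvd rose (0.86), and the sterol carrier Stard4 (-0.66) was among the falls, its call being lost without CKO 2 (0.059) or WT 1 (0.0579). No gene of the list was called with the replicate block.

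Of 24 glycolysis and hypoxia genes 1 rose and 2 fell (4.17% and 8.33%, beside 2.47% and 1.84% of all genes). The rise was Bnip3 (0.93), and the falls were the phosphofructokinase Pfkm (-0.69) and the glucose transporter Slc2a3 (-0.54). The median was -0.06, and 0 genes were called with the block. Of 44 cell cycle genes 1 rose (2.27%), the phosphatase Cdc25b (0.94, adjusted p = 0.0519 with the block), with a median of -0.27. Of 30 TCR complex and signalling genes 1 rose (3.33%), the ubiquitin ligase Itch (0.52). It lost its call without CKO 1 (0.0651), WT 2 (0.0526) or WT 4 (0.0626), and was not called with the block. Other Itch probes gave -0.29, 0.08 and 0.54. Of 25 helper lineage and Ikaros factors 3 fell (12%, beside 1.84% of all genes), namely Eomes, Nfil3 and Rora. Of 20 cytokines 3 fell (15%), namely Areg, Ifng and Il10. With the block 1 gene fell in each of these lists.

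Of 25 p53 target and BCL2 family genes 4 fell (16%, beside 1.84% of all genes) and 0 rose, with a median of -0.17. They were Bbc3 (-0.80), Gadd45a (-0.66), Perp (-1.16) and Sesn1 (-0.62). Bbc3 lost its call without CKO 3 (0.0678) or WT 1 (0.0792), Gadd45a without CKO 1 (0.0598), CKO 2 (0.0535) or WT 1 (0.059), Perp without CKO 2 (0.0558), and Sesn1 without CKO 1 (0.0692), CKO 2 (0.0501), WT 3 (0.0624) or WT 4 (0.065). Of 24 stress response genes 4 fell (16.7%) and 0 rose, with a median of -0.13. They were Gadd45a again, the asparagine synthetase Asns (-1.14), the chaperone partner Bag3 (-1.36) and Ddit4 (-1.42), an inhibitor of mTOR. Asns lost its call without CKO 1 (0.0662), CKO 3 (0.116), CKO 4 (0.0707), WT 1 (0.0887) or WT 2 (0.103), and Bag3 without CKO 1 (0.0883), CKO 2 (0.0517) or WT 4 (0.0758). No gene of either list was called with the replicate block.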
